A study of Mus musculus with 4 samples.

Results

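The leukemia inhibitory factor (LIF) and STAT3 pathway was described here through 8 genes, on arrays of mouse E14 embryonic stem cells given valproic acid (VPA) or left untreated. They are the receptor genes Lifr and Il6st, the kinase gene Jak1, the transcription factor gene Stat3 and 4 genes known as STAT3 targets, Socs3, Bcl3, Pim1 and Pim3. Members were found as probe sets whose platform annotation gives a single gene symbol equal to one of these names. All 8 were found, with 9 probe sets, among 19938 genes that had such a probe set. Socs3 had 2 probe sets and was represented by the one with the higher mean signal.

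LIF binds a receptor made of the Lifr chain and the shared chain gp130, which Il6st encodes. The receptor activates the kinase Jak1, which phosphorylates Stat3, and phosphorylated Stat3 enters the nucleus and activates genes. In mouse embryonic stem cells this signal sustains self-renewal in serum, and Socs3, itself a target, shuts the receptor down.

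The groups were 2 arrays of E14 cells exposed to 0.5 mM VPA, an inhibitor of histone deacetylases, for 4 h, and 2 arrays of untreated E14 cells. E14 is an established mouse embryonic stem cell line. Both groups grew on fibroblasts blocked with mitomycin C, in medium with serum and LIF, so the pathway's ligand was supplied to untreated cells too, and the feeders are a second source of RNA. Replicates are not said to be separate cultures, so a p-value here weighs a difference against array-to-array spread that could be technical. Values are log2 signals made by the authors with RMA, a method that corrects background, equalizes the arrays' distributions and summarises the probes of a set. A probe set's signal depends on its own probes, so no gene's level was set against another's, and the percentile of a signal among all 35556 probe sets is given only to show how bright it was.

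Stem cell markers stood high on all arrays, with a median percentile of 96.6 over 12 measured genes. Their mean log2 signal was 9.49 and 9.57 on the VPA arrays, against 9.77 and 9.68 on the untreated arrays. Of these markers 9 had a lower and 3 a higher mean with VPA. Both VPA arrays lay below both untreated ones in 7 of the 12, where 18.1% of all 19938 genes did, and above in 1. In limma 4 of the 12 had an unadjusted p below 0.05, all lower, where 2.71% of all genes had such a p and were lower. The 23 measured fibroblast feeder markers averaged 4.59 and 4.57 with VPA, against 4.60 and 4.66 in untreated cells. Their signals lay between percentile 2.74 (Lum) and 93.5 (Sparc), with a median of 56.1. Of the feeder markers 7 had a higher and 16 a lower mean with VPA. Endoderm markers, 4 in number, averaged 3.36 and 3.34 with VPA, against 3.68 and 3.63 untreated. All 4 had a lower mean with VPA, and 3 were separate downward, beside 18.1% of all genes. In limma 2 of the 4 were lower at an unadjusted p under 0.05, beside 2.71% of all genes. Their percentiles ran from 30.9 to 59.1. The 3 blood markers averaged 3.63 and 3.46 with VPA, against 3.47 and 3.46, with 2 higher and 1 lower. The part of these other cells in the pathway values was not tested, and in bulk RNA fewer cells of a type and less RNA per cell cannot be told apart. Pearson's r over probe sets was 0.993 between the VPA arrays and 0.991 between the untreated arrays, while pairs across the groups ran from 0.988 to 0.992, and untreated replicate 1 correlated with both VPA arrays at 0.992.

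Promoter windows of the 8 genes, from 250 bases before the start site to 50 after it, were taken from RefSeq on GRCm38.p6. All 8 genes matched, with 10 windows, since Lifr and Pim1 have 2 each. The windows were searched on both strands for TTCNNNGAA, the palindromic core that STAT proteins bind, for its stricter form TTCCNGGAA, and for GGGCGG, the core of a GC box. TTCNNNGAA contains every TTCCNGGAA match, and no GGGCGG match overlaps another motif's match in these windows. TTCNNNGAA was found in 1 of the 10 windows, that of Socs3, and in 8.3% of 32851 promoter windows. TTCCNGGAA was found in 0 of the 10 and in 1.15% of all windows. GGGCGG was found in at least 1 window of all 8 genes, 8 of the 10 windows, and in 35.7% of all windows. Base composition differed as well, with 49% to 81.3% G and C in the 10 windows, against a median of 52.7% over all windows. The windows of Stat3, whose difference as reported was the largest of the 8, and of Socs3, the feedback target, follow, and capitals mark a TTCNNNGAA match. The match in the Socs3 window lies 154 to 146 bases before the start site. A match is a string of letters and not a shown binding site.
Stat3, chr11:100939491-100939790, minus strand: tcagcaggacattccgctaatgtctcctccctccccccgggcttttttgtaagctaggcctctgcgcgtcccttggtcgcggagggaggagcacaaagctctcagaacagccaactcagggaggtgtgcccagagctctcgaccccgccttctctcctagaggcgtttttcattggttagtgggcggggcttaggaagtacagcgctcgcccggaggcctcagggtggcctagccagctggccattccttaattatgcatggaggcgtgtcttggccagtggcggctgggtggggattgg
Socs3, chr11:117969317-117969616, minus strand: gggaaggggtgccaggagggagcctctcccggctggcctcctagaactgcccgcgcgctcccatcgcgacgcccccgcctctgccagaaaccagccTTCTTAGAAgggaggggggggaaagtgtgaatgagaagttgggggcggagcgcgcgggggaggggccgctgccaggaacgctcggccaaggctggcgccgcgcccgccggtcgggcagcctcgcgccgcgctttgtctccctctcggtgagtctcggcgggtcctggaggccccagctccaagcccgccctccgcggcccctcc

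After 4 h with VPA no pathway gene differed from its untreated level past the threshold of an adjusted p of 0.05 in limma. Stat3 stood farthest above its untreated level, at 1.27-fold, and Bcl3 farthest below it, at 0.81-fold. The receptor and kinase genes and Socs3 lay between 1.03-fold and 1.11-fold of untreated, and Pim1 and Pim3 at 0.92-fold and 0.99-fold. Over all probe sets limma called 0 of 35556, a share of 0%, with a smallest adjusted p of 0.46, and 3269 had an unadjusted p under 0.05. The 8 genes had a median log2 difference of 0.063, beside 0.015 over all 19938 genes. Leaving out probe sets dimmer than the median, the genes that remained had a median of 0.056, close to that of the 8. Of the 8 genes 5 had a higher and 3 a lower mean with VPA, where 53.7% of all genes were higher. Their main probe sets lay between percentile 75.8 (Bcl3) and 91.6 (Pim1).

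The receptor genes were bright and close between the groups. Lifr, the ligand-specific receptor chain, had log2 signals of 8.17 and 8.15 on the VPA arrays, against 8.06 and 8.18 on the untreated arrays. Both VPA values lay between the untreated ones. The difference was 0.04 ± 0.11 (SE, n = 2 arrays a group), and its 95% interval runs from 0.84-fold to 1.25-fold. Its sign turned after a second quantile normalization, where it was −0.020.

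Il6st, the gene of the signal-transducing chain gp130, had 8.12 and 8.35 with VPA, against 8.16 and 8.01 untreated. VPA replicate 2 was the highest array and VPA replicate 1 lay between the untreated ones, so the groups overlap. The difference was 0.15 ± 0.13 (SE), with an interval from 0.87-fold to 1.41-fold. Without VPA replicate 2 it was 0.04, and without VPA replicate 1 it was 0.27.

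Jak1, the kinase bound to gp130, had 8.15 and 8.03 with VPA, against 7.97 and 7.93 untreated. Both VPA arrays lay above both untreated arrays, by 0.064 at the nearest. The difference was 0.14 ± 0.11 (SE), an interval from 0.91-fold to 1.34-fold, with an adjusted p of 0.75 in limma. After a second quantile normalization it was 0.07, and without VPA replicate 1 it was 0.08.

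Stat3, the transcription factor that carries the signal to the nucleus, had the largest difference of the 8 on the deposited values of all 4 arrays. In size, Bcl3 exceeded it after a second quantile normalization (−0.37 for Bcl3 and 0.29 for Stat3) and without untreated replicate 1 (−0.34 and 0.31) or VPA replicate 1 (−0.48 and 0.29). Stat3's log2 signals were 8.41 and 8.30 on the VPA arrays, against 7.98 and 8.05 on the untreated arrays. The groups did not overlap, and their nearest arrays were 0.25 apart, which exceeds the distance between replicates in either group. Stat3 averaged 8.35 ± 0.079 with VPA and 8.01 ± 0.050 untreated (SD, n = 2 each). The difference was 0.34 ± 0.11 (SE), or 1.27-fold with a 95% interval from 1.04-fold to 1.55-fold. Its unadjusted p of 0.028 in limma became 0.50 after adjustment over all probe sets, and the unadjusted p was 0.063 after a second quantile normalization. It was the only one of the 8 genes with an unadjusted p under 0.05 in limma, where 5.9% of all 19938 genes had such a p and were higher with VPA. The difference was between 0.29 and 0.40 with each array left out in turn, and its adjusted p lay between 0.36 and 0.93 over the alternatives.

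**Figure D1:**
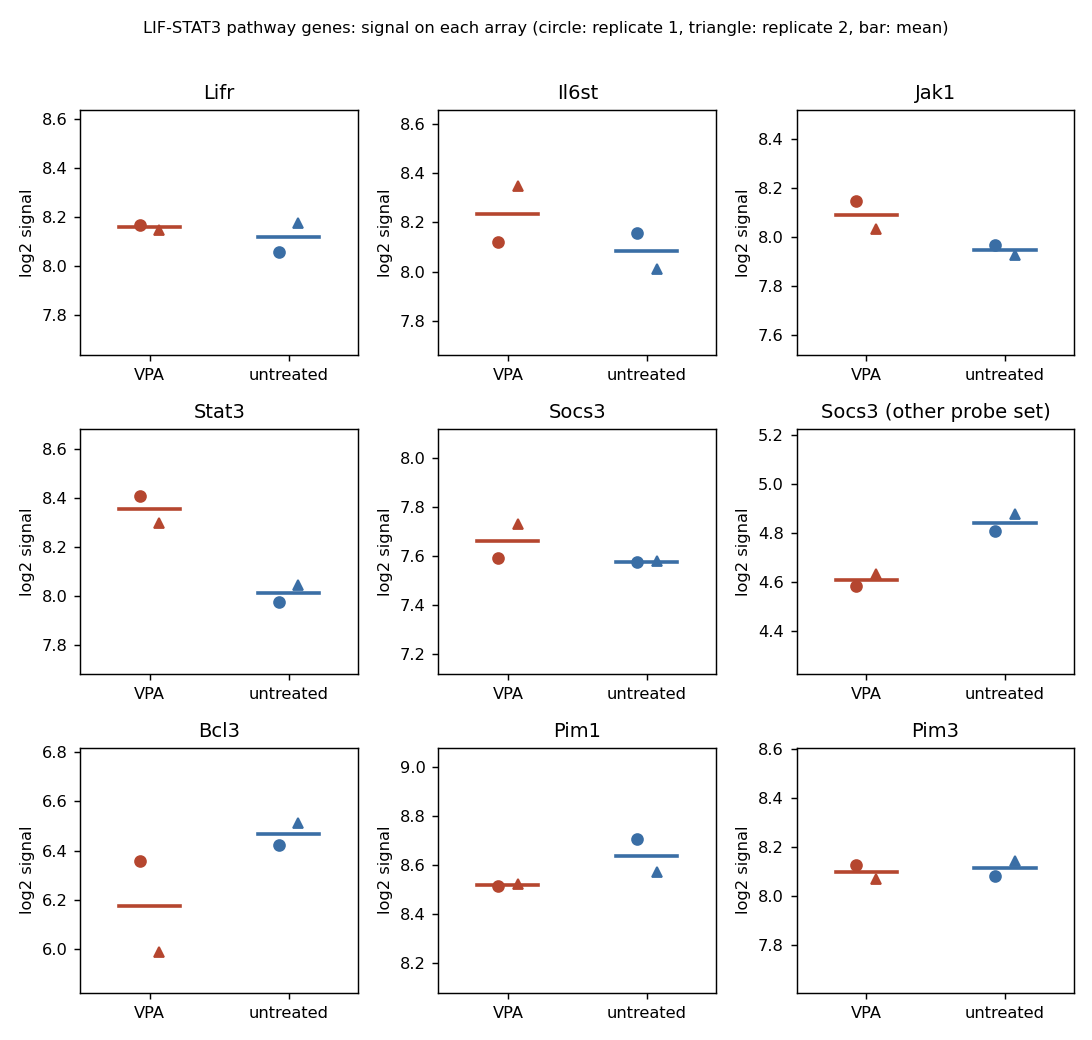
Log2 signal (vertical axis, each panel spanning the same range of log2 units) on the 2 VPA arrays and the 2 untreated arrays for each probe set of the 8 genes. Circles are replicate 1, triangles replicate 2 and bars the group means. The Stat3 groups lie 0.25 apart at their nearest arrays, while the Lifr, Il6st and Pim3 groups overlap.

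Socs3, the feedback inhibitor of the receptor, was read by 2 probe sets that disagreed in direction. The probe set with the higher signal (10393449) had 7.59 and 7.73 with VPA, against 7.58 and 7.58 untreated. The VPA arrays lay above by as little as 0.013, and the difference was 0.08 ± 0.11 (SE), an interval from 0.87-fold to 1.30-fold. It was 0.01 without VPA replicate 2 and 0.15 without VPA replicate 1.

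The other Socs3 probe set (10383010) had 4.58 and 4.63 with VPA, against 4.80 and 4.88 untreated. Here the VPA arrays lay below both untreated arrays, by 0.17 at the nearest, and the difference was −0.23 ± 0.11 (SE), with an adjusted p of 0.58 in limma. Its signal stood at percentile 61.7 of all probe sets, against 86.0 for the brighter one. The annotation ties the dimmer probe set to a single sequence record, while the brighter one is tied to the RefSeq transcript and further records. The numbers of the probe sets also set them apart, read against the strands of the genes whose probe sets have neighbouring numbers. Socs3 lies on the minus strand of chromosome 11. Of the 20 probe sets numbered next to the brighter one, 14 had a gene with a known strand, and all 14 were minus-strand genes of that chromosome. Next to the dimmer one, 14 had a known strand and all 14 were plus-strand genes of that chromosome. In the other 7 genes, every neighbour on the gene's own chromosome lay on the gene's own strand. Whether the dimmer probe set reads Socs3 mRNA was not tested. The mean of both Socs3 probe sets differed by −0.074.

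Bcl3, an atypical member of the inhibitor of NF-kappaB family and a reported STAT3 target, had 6.36 and 5.99 with VPA, against 6.42 and 6.51 untreated. Both VPA arrays lay below the untreated ones, but only VPA replicate 2 stood well apart, and the VPA arrays differed from each other by more than the group means did. Bcl3 averaged 6.17 ± 0.26 with VPA and 6.47 ± 0.066 untreated (SD, n = 2 each). The difference was −0.30 ± 0.16 (SE), or 0.81-fold with an interval from 0.61-fold to 1.09-fold. It was −0.11 without VPA replicate 2 and −0.48 without VPA replicate 1.

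Pim1 and Pim3 encode related serine/threonine kinases that promote survival and are reported STAT3 targets. Pim1 had 8.52 and 8.52 with VPA, against 8.70 and 8.57 untreated. The VPA values lay below both untreated ones, by 0.047 at the nearest, and the difference was −0.12 ± 0.11 (SE), an interval from 0.76-fold to 1.13-fold. It was −0.05 without untreated replicate 1.

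Pim3 had 8.13 and 8.07 with VPA, against 8.08 and 8.14 untreated. The arrays of the groups alternated in order, and the difference was −0.016 ± 0.11 (SE), an interval from 0.82-fold to 1.20-fold. Its sign turned without untreated replicate 2 and without VPA replicate 2, at 0.014 each.

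**Figure D2:**
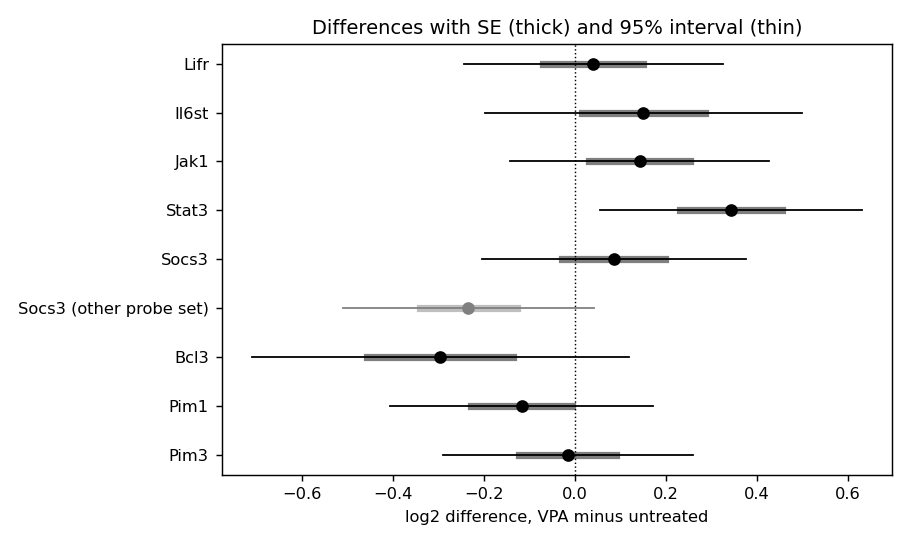
Log2 difference, VPA minus untreated (horizontal axis), for the 8 genes and the other Socs3 probe set (grey), with the SE as thick and the 95% interval as thin lines from the limma fit. The interval of Stat3 alone lies above 0, and the 2 Socs3 probe sets lie on opposite sides of it.

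Of the 8 genes, 3 (Jak1, Stat3 and Socs3) had both VPA arrays above both untreated arrays and 2 (Bcl3 and Pim1) had both below. Over all 19938 genes, 24.1% were separate in the upward and 18.1% in the downward direction, 42.2% in all. With so few arrays an exact permutation test of a single gene cannot give a p below 0.33. After a second quantile normalization 1 of the 8 genes was separate upward, and 2 downward.

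**Figure D3:**
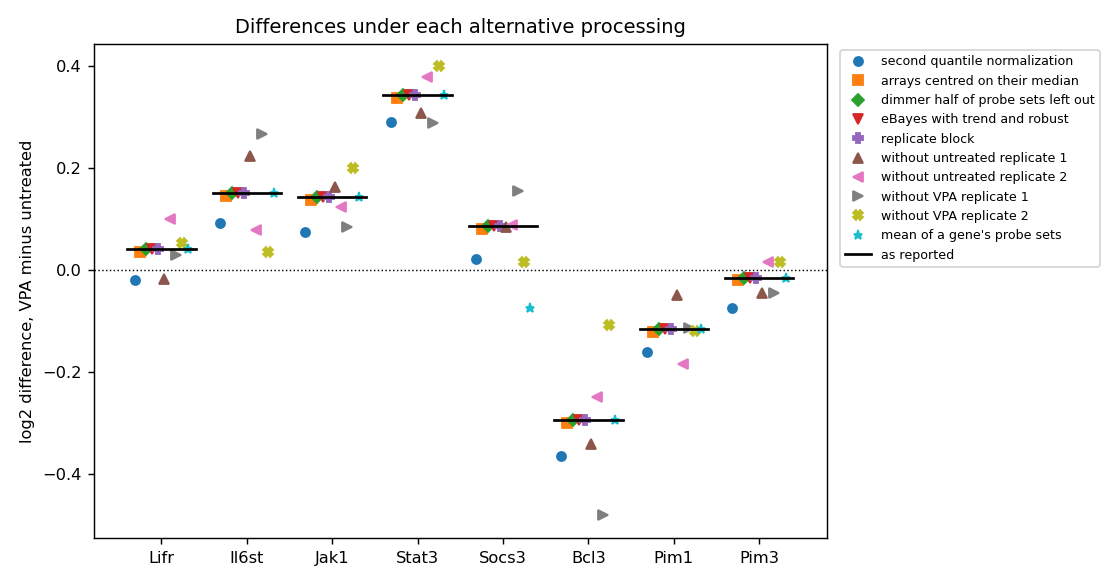
Log2 difference, VPA minus untreated (vertical axis), of each gene as reported (black bar) and under each alternative processing (symbols), by gene. Every Stat3 value lies between 0.29 and 0.40, the Bcl3 values run from −0.48 to −0.11, and values of Lifr, Socs3 and Pim3 fall on both sides of 0.

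The other genes of the pathway were read from 4 lists of 53 names, of which 49 were measured and 0 passed the threshold in limma. At an unadjusted p under 0.05 in limma there were 4 higher and 3 lower, which is 8.16% and 6.12%, against 5.9% higher and 2.71% lower over all 19938 genes. After a second quantile normalization they were 2 higher and 4 lower. With an array left out the total was 0 without VPA replicate 2, 2 without VPA replicate 1, 4 without untreated replicate 2 and 6 without untreated replicate 1. Those fits have 1 residual degree of freedom in place of 2, and without VPA replicate 2 Myc still differed by −0.56 and Stat2 by 0.58, while Sos1 differed by 0.27.

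Ligand and receptor genes of the interleukin 6 family lay mostly below their untreated level. Of 9 measured, 8 had a lower and 1 a higher mean with VPA. VPA arrays lay entirely below the untreated ones in 7 of the 9, where 18.1% of all genes did. At an unadjusted p under 0.05 in limma 1 of 9 was lower, beside 2.71% of all genes. The median difference of the list was −0.16, or −0.19 after a second quantile normalization. Most of these probe sets were dim, with a median percentile of 47.1 and a lowest of 2.80 (Il6). The shares over all genes cover every brightness, and none was taken over genes as dim as these. Il11, a cytokine that signals through gp130, had 3.94 and 3.74 with VPA, against 4.15 and 4.48 untreated, a difference of −0.48 ± 0.16 (SE, adjusted p = 0.51 in limma) that was −0.31 without untreated replicate 2. Clcf1, another cytokine of the family, had 3.55 and 3.50, against 3.70 and 3.80, a difference of −0.22 ± 0.11. Lif itself, which cells and feeders can make beside the LIF in the medium, had 4.24 and 4.16 with VPA, against 4.29 and 4.43 untreated. The Lif groups did not overlap, and the difference was −0.16 ± 0.12, or −0.086 without untreated replicate 2.

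Kinases, STATs and adaptors lay mostly above, with 9 of 11 higher and 2 lower in the mean, 5 of 11 separate upward, where 24.1% of all genes were, and 0 downward. Their median difference was 0.12, or 0.06 with 8 of 11 higher after a second quantile normalization. At an unadjusted p under 0.05 in limma 2 of 11 were higher, beside 5.9% of all genes. Stat2, which acts in interferon signalling, had 5.28 and 5.27 with VPA, against 4.48 and 4.93 untreated, a difference of 0.58 ± 0.18 (SE, adjusted p = 0.50 in limma). The untreated arrays of Stat2 averaged 4.70 ± 0.32 (SD, n = 2), and the difference was 0.35 without untreated replicate 1. Sos1, which links receptors to Ras, had 6.34 and 6.58, against 6.10 and 6.05, a difference of 0.39 ± 0.13. Jak2, a kinase related to Jak1, had 4.58 and 4.73 with VPA, against 4.66 and 4.55 untreated. The Jak2 groups overlap and the difference was 0.05 ± 0.12.

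Inhibitors of the pathway had 10 of 14 higher and 4 lower in the mean. Their groups were separate upward in 5 and downward in 1, where 24.1% and 18.1% of all genes were, and overlapped in 8. The median was 0.05, and turned to −0.0066 with 7 higher and 7 lower after a second quantile normalization. At an unadjusted p under 0.05 in limma 1 of 14 was higher, beside 5.9% of all genes. That gene was Pias1, which restrains STAT proteins in the nucleus. It had 6.77 and 6.82 with VPA, against 6.51 and 6.41 untreated, a difference of 0.34 ± 0.11 (SE, adjusted p = 0.50 in limma). Socs4 had 6.86 and 6.93, against 6.72 and 6.35, a difference of 0.37 ± 0.16 that was 0.18 without untreated replicate 2. Ptpn11, a phosphatase that links gp130 to the ERK pathway and limits STAT3, had 7.48 and 7.60, against 7.30 and 7.29, a difference of 0.25 ± 0.11. Socs1, which like Socs3 blocks JAK kinases, had 4.83 and 4.55 with VPA, against 4.86 and 4.79 untreated. Its difference was −0.13 ± 0.14, decided by VPA replicate 2, without which it was 0.0056.

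Reported STAT3 targets beyond the members lay mostly below, with 12 of 15 lower and 3 higher in the mean. Their median was −0.09, or −0.14 after a second quantile normalization. In 10 of the 15 the groups overlap, while 4 were separate downward and 1 upward, where 18.1% and 24.1% of all genes were. The stem cell markers lay below untreated as well, with 9 of 12 lower and a median of −0.23, and their part in the target values was not tested. Of the 15 targets 3 had an unadjusted p under 0.05 in limma, 2 lower and 1 higher, where 2.71% and 5.9% of all genes did. Myc, a growth-promoting transcription factor, had 6.97 and 6.81 with VPA, against 7.35 and 7.70 untreated, a difference of −0.64 ± 0.16 (SE, adjusted p = 0.48 in limma). Both VPA arrays lay below both untreated arrays, and the difference stayed between −0.82 and −0.46 over the alternatives. Gbx2, a homeobox gene, had 5.81 and 5.78, against 6.24 and 6.06, a difference of −0.35 ± 0.12. Ier3, an immediate early gene, had 5.55 and 5.55, against 4.86 and 5.27, a difference of 0.49 ± 0.17, which was 0.28 without untreated replicate 1. The naive pluripotency factors Klf4 and Tfcp2l1 stood close to untreated, at −0.09 ± 0.11 for Klf4 and −0.09 ± 0.12 for Tfcp2l1. With an array left out Klf4 ran from −0.12 to −0.053 (without VPA replicate 1) and Tfcp2l1 from −0.16 (without untreated replicate 2) to −0.024 (without untreated replicate 1), with −0.032 without VPA replicate 1. Klf4 had 8.50 and 8.57 with VPA, against 8.61 and 8.63 untreated, and Tfcp2l1 had 8.23 and 8.35, against 8.45 and 8.32.

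**Figure D4:**
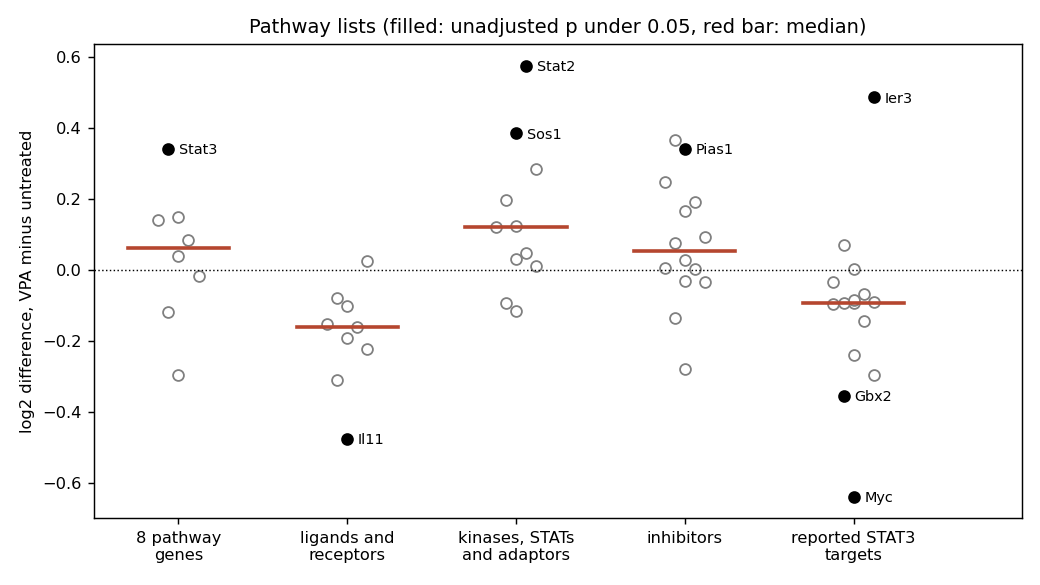
Log2 difference, VPA minus untreated (vertical axis), of the 8 genes and of the measured genes of 4 further pathway lists. Filled points have an unadjusted p under 0.05 in limma, and red bars are medians. The medians were −0.16 for ligands and receptors, 0.12 for kinases, STATs and adaptors, 0.05 for inhibitors and −0.09 for reported targets. After a second quantile normalization they were −0.19, 0.06, −0.0066 and −0.14, in the same order.

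The genes whose values over the 4 arrays ran closest to those of Stat3, after each was centred on its own mean, were taken from 9961 brighter genes. Tasp1, a protease that cleaves the MLL methyltransferase, was nearest, with a root mean square distance of 0.0064 log2 units. It had 5.83 and 5.71 with VPA, against 5.39 and 5.48 untreated. Shisal2a followed at 0.015 and Slco4a1, an organic anion transporter, also at 0.015. Over 4 arrays such a likeness describes a shared order of values and no more.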

How the data were processed

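Total RNA of mouse E14 cells was hybridised to 4 one-colour Affymetrix arrays, 2 per group, assigned by the treatment in the titles. Per the submitters' processing notes, the authors made the deposited log2 signals with RMA, run in version 1.1 of Affymetrix Expression Console. The genome build and the arrays normalized together are not given in the sources used here. Values ran from 1.41 to 13.95, and the number of arrays limits their precision. Of the 35556 probe sets, 21789 had 1 gene symbol in the platform annotation, 1621 several and 12146 none here. A gene was represented by its probe set of highest mean.

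VPA was set against untreated with limma 3.58.1 (lmFit, eBayes) under R 4.3.3, over all probe sets, two-sided, with Benjamini-Hochberg adjustment, 2 residual and 2.93 prior degrees of freedom. The 95% intervals come from that fit. The fit was also run on simulated arrays with independent normal noise and known differences, which does not test the intervals on these arrays. The genes named are the 8 members, a few further genes named always, and per list those of unadjusted p under 0.05, or the 2 of smallest p. Jak3, Cntf and Il11ra1 were among the list names not analysed here. Members and lists were chosen with earlier results of these data known. Alternatives were a second quantile normalization, median centring, leaving out dimmer probe sets, eBayes with trend and robust options, the replicate number as a block, leaving out each array and averaging a gene's probe sets.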

Additional observations from a re-analysis of the deposited data

How the results depend on the processing

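None of the 8 genes passed the threshold under the 10 alternatives, and 0 probe sets were called under the 9 that were run over all probe sets (the average of a gene's probe sets is given for the 8 genes only). Il6st, Jak1, Stat3, Bcl3 and Pim1 kept their direction under all 10 alternatives. Those that turned were Lifr after a second quantile normalization (−0.020) and without untreated replicate 1 (−0.019, with a range to 0.10 over single arrays left out), Socs3 with its probe sets averaged (−0.074), and Pim3 without untreated replicate 2 or VPA replicate 2 (0.014 each, range from −0.045). Jak2 turned without untreated replicate 2 (−0.0063) and VPA replicate 2 (−0.024, range to 0.12), and Socs1 without VPA replicate 2 (0.0056, range from −0.28). The median of the 8 genes was 0.00026 after a second quantile normalization, where the median of all genes moved to −0.0042, 0.012 with probe sets averaged, and 0.025 to 0.082 with each array left out. Separate groups were found for 3 genes after the second normalization and for 5 to 8 with an array left out, where fewer arrays overlap less often: without untreated replicate 1, 74.8% of all genes were separate. Other pathway genes at an unadjusted p under 0.05 numbered 3 with the replicate block and 0 to 6 with an array left out. Over all probe sets that count was 1827 to 4242 with an array left out. Its higher and lower parts were 2049 and 1220 as reported and 1670 and 1542 after the second normalization. The cause of these shifts was not tested. Over all 19938 genes the deposited log2 signals averaged 4.94 and 4.93 on the VPA arrays, against 4.91 and 4.90 on the untreated arrays. The replicate block, which left 2576 probe sets at an unadjusted p under 0.05 in limma, is an alternative only. The labels give same-numbered arrays nothing in common but the number. The deviations of replicate 1 from the group means correlated at −0.097 between the groups. The fit that leaves out an array assumes that the lone array varies like the other group.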

Other observations

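Genes on either side of Stat3 on its chromosome were read after the values of Stat3 had been seen, with their order taken from RefSeq on GRCm38.p6 and only genes with a single-symbol probe set counted. Stat5b, a related STAT gene, had log2 signals of 4.11 and 4.23 with VPA, against 3.93 and 3.84 untreated, a difference of 0.28 ± 0.11 (SE, adjusted p = 0.55 in limma). Stat5a, which lies between Stat5b and Stat3, had 4.36 and 4.06 with VPA, against 4.54 and 4.12 untreated, and its groups overlap. On the far side, Cavin1, a caveolar coat gene, had 7.16 and 7.29, against 7.18 and 7.47, with overlap. Atp6v0a1, a subunit gene of the vacuolar proton pump, had 7.07 and 7.10, against 6.81 and 6.83, a difference of 0.27 ± 0.10 (adjusted p = 0.54 in limma) without overlap. Of these 4 neighbours 2 did not overlap between the groups, beside 42.2% of all genes. Socs2, a further inhibitor with 2 probe sets, had both below untreated, at −0.28 ± 0.15 and −0.20 ± 0.12, whereas the Socs3 probe sets pointed in opposite directions. The Socs2 probe sets were not checked against the genes of neighbouring numbers, as those of Socs3 were. Whether both read Socs2 mRNA was not tested.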
